A study of Rattus norvegicus with 12 samples.

Results

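The 10 genes described here encode vasoconstrictor receptors: Ednra and Ednrb for endothelin, Agtr1a for angiotensin II, Adra1a, Adra1b and Adra1d for noradrenaline, Htr2a and Htr2b for serotonin, Avpr1a for vasopressin and F2r for thrombin. They were taken by name, with no threshold on a measured value, from the 33294 genes of the deposited count table, and all 10 have a row there. The samples were 12 poly(A) RNA libraries of rat PAC1 pulmonary artery smooth muscle cells, in 4 groups of 3. D1 libraries came from the more differentiated PAC1-D cells treated with the C2 control siRNA, and P libraries from PAC1-P cells, which are split more often and at higher dilution, treated with the same control siRNA. RBPMS KD1 libraries came from PAC1-D cells given an siRNA to RBPMS, and MBNL KD libraries from PAC1-D cells given siRNAs to MBNL1 and MBNL2 together. Per the labels, all groups received 90 pmol of siRNA and a second transfection after 24 h, and were harvested 48 h after that (the study's methods give longer times). RBPMS and the MBNL proteins are RNA-binding proteins that regulate splicing. PAC1 is a single established cell line that retains only part of the mature contractile phenotype, so the groups are culture states and knockdowns of 1 line. The study's methods describe the replicates of its knockdown conditions as biological. The labels give only replicate numbers, and the p-values measure the spread between these libraries of 1 cell line.

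Vasoconstrictor receptors sit in the plasma membrane of vascular smooth muscle and carry an extracellular signal to the contractile machinery. Nearly all of them couple to the G proteins Gq and G11, which activate phospholipase C beta, and the inositol trisphosphate made by that enzyme opens calcium channels of the sarcoplasmic reticulum. Many couple to G12 and G13 as well, which act through RhoA exchange factors to inhibit myosin phosphatase. Endothelin acts on smooth muscle mainly through the A receptor, while endothelial cells carry the B receptor, and the thrombin receptor PAR1, encoded by F2r, is activated when thrombin cuts its extracellular end. Comparing P with D1 asks how the receptor genes differ between the culture states, and the knockdowns ask how far they change when RBPMS or the MBNL proteins are depleted in the differentiated state.

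The siRNA sense strands define the treatments that separate the groups, and are shown 5′ to 3′ as the study lists them, with no base marked. The first is the control used in D1 and P, the second was used in RBPMS KD1, and the last pair was used together in MBNL KD.
C2: aagguccggcucccccaaaug
RBPMS: ggcggcaaagccgagaaggcgaaca
MBNL1: cacggaauguaaauuugcauu
MBNL2: gaagaguaauugccugcuuuu
The targeted genes were lower in the libraries labelled as their knockdowns. Rbpms was at 25.0% of D1 in RBPMS KD1, Mbnl1 was at 23.8% and Mbnl2 at 29.7% of D1 in MBNL KD, and Rbpms was at 6.32% of D1 in P with no siRNA against it.

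Library totals lay between 80842635 and 90771289 counts, with the lowest in MBNL KD replicate 3, which also differed most from its fellow libraries, so values without it are given where they change a call. All values below are scaled counts, that is counts scaled by TMM factors to a library of the 12 libraries' average size, so a value can be compared between libraries of the same gene but not between genes, since gene length was not corrected for. A gene was called changed when its p in the quasi-likelihood test of edgeR, adjusted over all genes tested, was under 0.05 and the fold was above 2, that is 1 on the log2 scale. Among 10 smooth muscle markers, 9 were lower and Des was higher in P than in D1 past both thresholds, beside 11.2% and 16.4% of all genes. All 10 were detected in every group. Of markers for other cells, the summed level of 8 leukocyte genes was 79.5 to 149 scaled counts over all libraries, with Itgam at 0 in D1, RBPMS KD1 and MBNL KD. The sum of 7 epithelial genes was 4225 to 4346 in D1, 7525 to 7810 in P, 4399 to 4721 in RBPMS KD1 and 6333 to 6437 in MBNL KD. Of its 2 genes tested in P, Krt8 was higher (3218 in D1 and 7250 in P, log2 fold change 1.17, adjusted p = 6e-26) and Grhl2 lower (1049 and 410, -1.36, adjusted p = 2.8e-18), and Epcam was at 0 in D1 and both knockdowns. The sum of 8 neural genes was 1822 to 2042 in D1, 784 to 819 in P, 1640 to 1714 in RBPMS KD1 and 1918 to 2108 in MBNL KD. Within these lists, Mbp (-1.70) and Cd3e (1.80) passed both thresholds in P, and Syt1 (-2.84, adjusted p = 4.2e-15), Gfap (2.23, adjusted p = 0.002) and Csf1r (a mean of 58.1 against 23.5 in D1, adjusted p = 0.00024) did so in MBNL KD, where Gfap passed the filter through the MBNL KD libraries alone, as Cd3e did through those of P. Their part in the results was not tested. In bulk RNA, fewer cells expressing a receptor and less RNA per cell cannot be told apart.

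**Figure D1:**
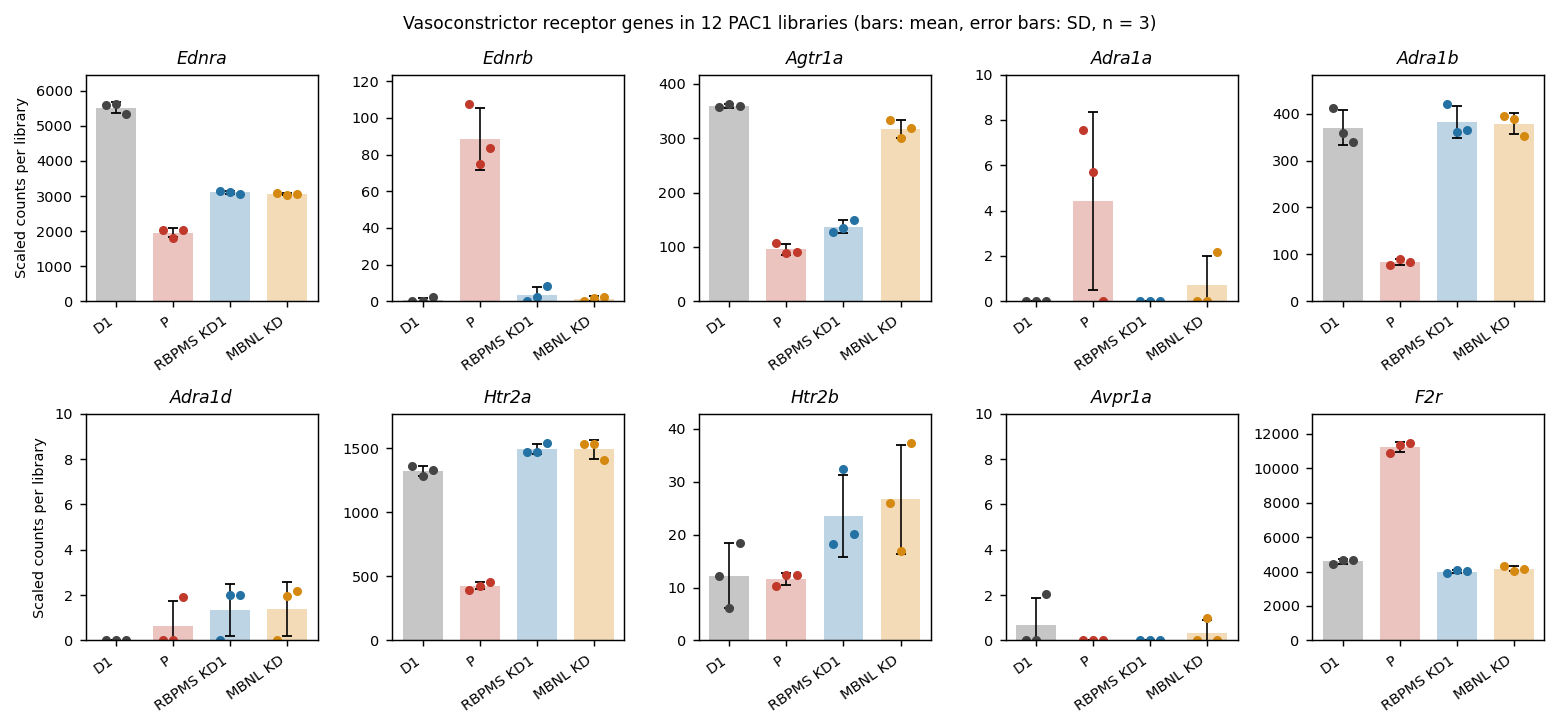
Scaled counts of each of the 10 receptor genes (y axis, linear and starting at 0, a separate scale for each gene) in the 4 groups (x axis). Points are single libraries, bars are means and error bars are SDs over 3 libraries. Ednra, Agtr1a, Adra1b and Htr2a were lower in P than in D1, F2r and Ednrb were higher, and Adra1a, Adra1d and Avpr1a stayed below 8 scaled counts in every library.

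The endothelin A receptor gene Ednra was lower than in D1 in all 3 other groups. It had 5584, 5623 and 5341 scaled counts in the D1 libraries and 2040, 1815 and 2019 in the P libraries, which leaves the groups well apart. Its log2 fold change in P was -1.50 (SE 0.04, adjusted p = 2.3e-26), or 35.5% of D1. In RBPMS KD1 the libraries had 3144, 3115 and 3062 scaled counts, and in MBNL KD they had 3086, 3036 and 3058. Every knockdown library therefore lay between the D1 and the P libraries, at means of 3107 ± 41.3 for RBPMS KD1 and 3060 ± 24.7 for MBNL KD (SD, n = 3). Both knockdowns passed the adjusted p but not the fold threshold, with log2 fold changes of -0.83 (SE 0.03, adjusted p = 5.6e-18) and -0.85 (SE 0.03, adjusted p = 1.3e-19). Between the knockdowns the libraries overlapped and the log2 difference, MBNL KD against RBPMS KD1, was -0.03 (95% interval -0.10 to 0.05, adjusted p = 0.53).

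Ednrb, which encodes the endothelin B receptor, was barely detected in PAC1-D cells and present in PAC1-P cells. The D1 libraries had 0, 0 and 2 counts, against 114, 79 and 88 counts in P. Counts in RBPMS KD1 were 0, 2 and 8 and those in MBNL KD were 0, 2 and 2, so every library outside P lay far below the P libraries. With 281 counts in P and 2 in D1, the ratio was 130 with an exact 95% counting interval of 35.6 to 1079. That interval covers counting error only and takes each count as independent, which does not hold if both mates of a read pair were counted. At counts up to 20, even values were 2.35 to 2.69 times as frequent as odd ones, so the interval may be too narrow. The fitted log2 fold change was 6.78 (SE 0.54, adjusted p = 2.7e-13), a value that depends on the prior count where D1 is near 0. Ednrb passed the filter on low counts through the P libraries alone and could not be tested in the knockdowns.
The summed level of endothelial markers was also higher in P. The sum of 8 such genes was 157 to 164 scaled counts in D1 and 1314 to 1370 in P, against 248 to 261 in RBPMS KD1 and 258 to 308 in MBNL KD. Of the 4 genes tested in P, Cdh5 passed the filter on low counts through the P libraries alone. Erg, a transcription factor, had 814 as its middle value against 90.7 in D1, Tek, the angiopoietin receptor, had 317 against 23.7, Cdh5, the cadherin of endothelial junctions, had 119 against 0, and Vwf had 107 against 41.2. In RBPMS KD1, where Ednrb had 0, 2 and 8 counts, Tek (log2 fold change 1.32, adjusted p = 0.00022) and Vwf (1.22, adjusted p = 2.4e-05) were past both thresholds as well, with a Vwf mean of 94.7 against 100 in P. Of the markers not tested in P, Cldn5 was at 0 in every library of P and Pecam1 had 16 counts over the 3 P libraries. Kdr and Tie1 had means of 1.90 and 3.78 scaled counts in P. Their part in the Ednrb result was not tested.

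Agtr1a, the rat gene for the main angiotensin II type 1 receptor, separated the knockdowns. The D1 libraries had 357, 363 and 359 scaled counts, and those of P had 108, 89.1 and 91.1, a log2 fold change of -1.91 (SE 0.13, adjusted p = 3.2e-15). RBPMS KD1 libraries had 127, 136 and 149 scaled counts, above every P library and below every D1 library. This was 38.2% of D1, with a log2 fold change of -1.39 (SE 0.11, adjusted p = 2.1e-11). MBNL KD libraries had 333, 300 and 319 scaled counts, all below D1 by a small margin, and the log2 fold change of -0.18 (95% interval -0.38 to 0.02) did not pass the test (adjusted p = 0.099). Agtr1a passed at that contrast with quantile normalization (-0.27, adjusted p = 0.013) and in the authors' normalised values with limma (-0.24 on their log2 scale, adjusted p = 0.023). The difference between the knockdowns was tested directly: Agtr1a was higher in MBNL KD than in RBPMS KD1 by 1.20 on the log2 scale (SE 0.12, adjusted p = 3.6e-10). Its near-identical rat copy Agtr1b had 0 to 2 counts in every library, and since it is not stated how reads shared by the copies were counted, the Agtr1a level is uncertain to that extent.

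Of the alpha-1 adrenergic receptors, which respond to noradrenaline from sympathetic nerves, Adra1b was the only subtype with more than 8 counts in a library. The D1 libraries had 412, 359 and 340 scaled counts and the P libraries had 77.3, 91.0 and 83.5, or 22.7% of D1. No P library came near the D1 range, and the log2 fold change was -2.15 (SE 0.13, adjusted p = 5e-16), the lowest among the receptor genes tested there. RBPMS KD1 libraries had 420, 360 and 365 scaled counts and MBNL KD libraries 394, 389 and 353, and both groups overlapped D1. The log2 differences from D1 were 0.05 (95% interval -0.15 to 0.24, adjusted p = 0.71) in RBPMS KD1 and 0.03 (95% interval -0.17 to 0.23, adjusted p = 0.78) in MBNL KD, and changed sign under some settings. Adra1a, the subtype known for resistance vessels, had 8, 6 and 0 counts in P, 0, 0 and 2 in MBNL KD and 0 in all other libraries. Adra1d had 0 counts in D1 and at most 2 in any library. Neither could be tested. At these totals a count of 0 still allows up to 3 counts in a library if each count is independent, and more if mates were counted separately.

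The serotonin receptor gene Htr2a, whose product mediates contraction to serotonin, was lower in P and slightly higher in both knockdowns. It had 1362, 1282 and 1328 scaled counts in D1 and 397, 428 and 457 in P, a log2 fold change of -1.64 (SE 0.07, adjusted p = 5.5e-21). RBPMS KD1 libraries had 1472, 1470 and 1537 and MBNL KD libraries 1528, 1534 and 1406, each above the highest D1 library. The knockdown means were close to 113% of D1, with log2 fold changes of 0.18 (SE 0.05, adjusted p = 0.0043) in RBPMS KD1 and 0.17 (SE 0.05, adjusted p = 0.0053) in MBNL KD. These passed the adjusted p and not the fold threshold, in the direction opposite to P. The knockdowns differed from each other by -0.01 (95% interval -0.12 to 0.10, adjusted p = 0.91).
Htr2b, the other serotonin receptor gene, was measured on few counts, and would not have met the filter on low counts from the D1 libraries. The D1 libraries had 12, 6 and 18 counts, those of P 11, 13 and 13, those of RBPMS KD1 18, 32 and 20 and those of MBNL KD 26, 17 and 34. The knockdown libraries overlapped D1 in both cases. MBNL KD passed both thresholds with a log2 fold change of 1.10 (SE 0.44, adjusted p = 0.027), and RBPMS KD1 did not (0.93, SE 0.43, adjusted p = 0.066). The call in MBNL KD was lost without MBNL KD replicate 3 (0.79, adjusted p = 0.18), without MBNL KD replicate 1 (1.12, adjusted p = 0.053), without D1 replicate 1 (1.09, adjusted p = 0.07) and without D1 replicate 2 (0.78, adjusted p = 0.15). In the RefSeq gene table, on another assembly, Htr2b overlaps Psmd1, a proteasome gene that had up to 28216 counts in a library, and as it is not stated whether strand was used in counting, the Htr2b counts cannot be told apart from Psmd1 reads.

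Avpr1a, the vasopressin V1a receptor gene, had a count in 2 libraries, 2 counts in D1 replicate 3 and 1 count in MBNL KD replicate 2, and was not tested. F2r, the thrombin receptor gene, moved opposite to the other well-detected members in P. It had 4409, 4678 and 4694 scaled counts in D1 and 10864, 11363 and 11437 in P. The P level was 244% of D1, a log2 fold change of 1.28 (SE 0.03, adjusted p = 9.3e-28), and no P library overlapped D1. RBPMS KD1 libraries had 3910, 4092 and 4003 scaled counts and MBNL KD libraries 4339, 4034 and 4125, all just below the lowest D1 library. The log2 fold changes were -0.20 (SE 0.04, adjusted p = 1.9e-05) in RBPMS KD1 and -0.14 (SE 0.04, adjusted p = 0.00085) in MBNL KD. The change in MBNL KD was lost with quantile normalization (-0.06, adjusted p = 0.14) and in the authors' normalised values (-0.06, adjusted p = 0.21), so it depended on the scaling.

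Across the members, the order of the 4 groups differed from gene to gene. For Ednra the order was D1, then both knockdowns without a difference between them, then P. For Agtr1a it was D1, MBNL KD, RBPMS KD1 and P, with no overlap of libraries between neighbours, although the step from D1 to MBNL KD did not pass the test. For Adra1b, D1 and both knockdowns overlapped and P lay apart below them. For Htr2a the knockdowns overlapped each other above D1, and P was lowest. For F2r, P was highest, D1 next and the knockdowns lowest, overlapping each other.

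**Figure D2:**
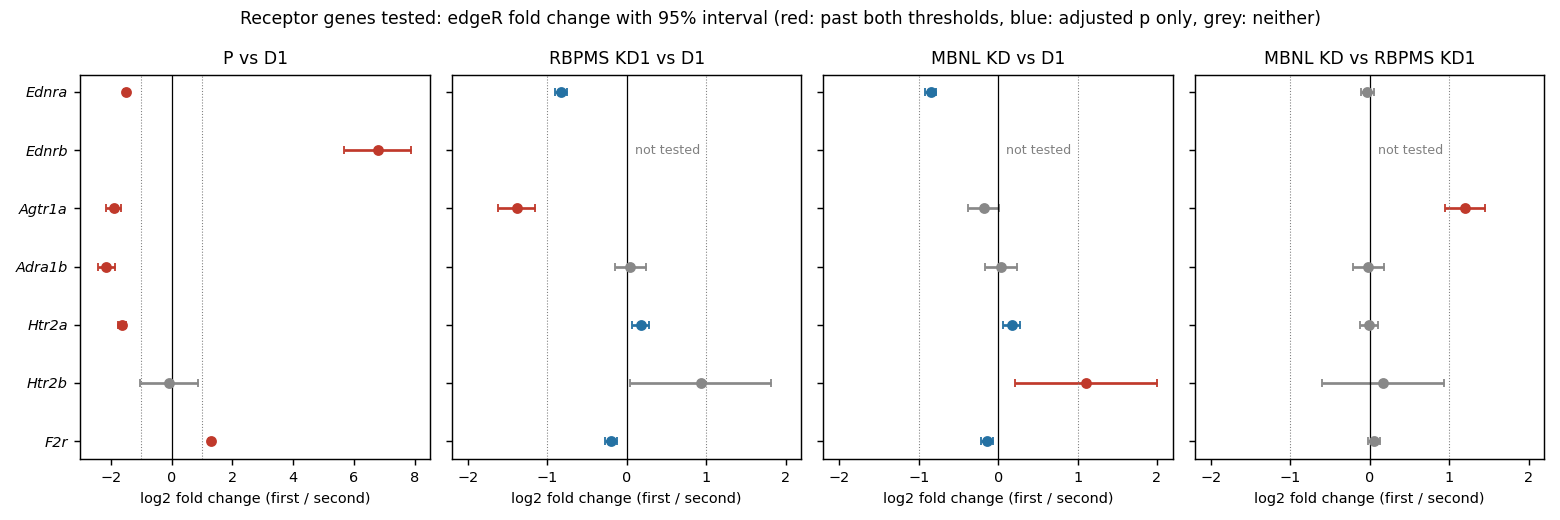
Log2 fold change of each receptor gene tested (x axis, first group over second, with a wider scale for P vs D1) in 4 comparisons. Points are edgeR estimates, bars are 95% intervals, and dotted lines mark a log2 fold change of 1 in each direction. Ednra lay at -0.83 and -0.85 in the knockdowns, while Agtr1a lay at -1.39 in RBPMS KD1 and -0.18 in MBNL KD.

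In counts of members, 4 of the 10 receptor genes (Ednra, Agtr1a, Adra1b and Htr2a) were lower and 2 (Ednrb and F2r) were higher in P than in D1 past both thresholds, where 11.2% of the 16814 genes tested were lower and 16.4% were higher. Ednrb was tested only through the P libraries, where it was high, so its call supports no difference from the background. Htr2b did not pass, and 3 members were not tested. At the adjusted p alone the same genes passed, beside 37.6% of all genes lower and 40.4% higher. In RBPMS KD1, Agtr1a was the 1 member past both thresholds in the lower direction, where 1.62% of the 15904 genes tested were lower, and 0 members were higher, where 3.06% of genes were; at the adjusted p alone 3 members were lower and 1 was higher, beside 29.5% of all genes in each direction. That count of 0 rose to 1 (Htr2b, 1.34, adjusted p = 0.033) without D1 replicate 3. In MBNL KD, Htr2b was the 1 member higher past both thresholds (background 6.1% of 16053 genes) and 0 were lower (4.14%), and at the adjusted p alone 2 were higher (33.8%) and 2 lower (33.7%). Htr2b would not have met the filter from the D1 libraries there, so its call supports no difference from the background. Between MBNL KD and RBPMS KD1, Agtr1a alone passed both thresholds, higher in MBNL KD (5.88% of 16111 genes), and 0 members were lower (6.03%), with backgrounds at the adjusted p alone of 35.1% higher and 34.5% lower. The shares of members are of 7 tested genes in P and of 6 elsewhere, so 1 gene is a large share. The 3 comparisons with D1 use the same 3 control libraries.

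Set beside the contractile genes of the same cells, the members that fell in P kept a larger share of their D1 level. Ednra, Agtr1a, Adra1b and Htr2a lay between 22.7% and 35.5% of D1, while Acta2, smooth muscle actin, lay at 0.918%, Myh11, smooth muscle myosin, at 12.6%, and Smtn at 19.7% of D1. This is a description over named genes, and the difference between the lists was not tested. It did not hold for all constrictor receptors. Of 7 others lower in P past both thresholds, named here after their values were seen, Npy1r (8.29%), Tbxa2r (8.89%) and P2ry6 (9.41%) lay below Myh11. The rest, Adra2b, Adra2a, P2rx1 and Oxtr, lay between 26.4% and 47.0% of D1. In RBPMS KD1, 5 of the 10 markers were lower past both thresholds, beside 1.62% of all genes. The median log2 fold change of the 10 was -1.04, with levels from 32.0% of D1 for Mylk to 156% for Des. In the same group Agtr1a lay at 38.2%, Ednra at 56.3%, F2r at 87.1%, Adra1b at 103% and Htr2a at 113%. In MBNL KD, 1 marker, Des, was higher past both thresholds (6.1% of all genes) and 7 were lower at the adjusted p (33.7% of all genes). The median was -0.41, with levels from 62.8% for Smtn to 265% for Des. There Ednra lay at 55.5%, Agtr1a at 88.2%, F2r at 90.7%, Adra1b at 102% and Htr2a at 113% of D1.

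**Figure D3:**
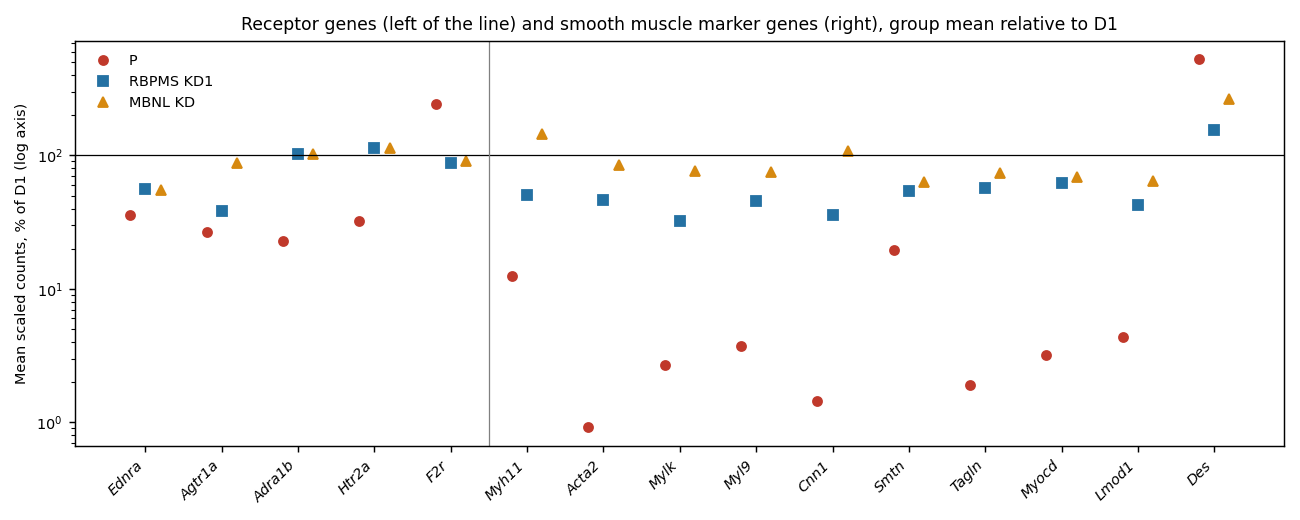
Mean scaled counts in P, RBPMS KD1 and MBNL KD as a percentage of the D1 mean (y axis, log scale, with a line at 100%) for 5 receptor genes and 10 smooth muscle marker genes (x axis). Each point is a mean of 3 libraries. The 4 receptor genes lower in P lay between 22.7% and 35.5% of D1, above the 9 markers that fell.

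The receptors' ligands and the enzymes that make or degrade them were read from a list of 21 genes. Of the 9 tested in P, 1 was higher and 3 were lower past both thresholds, and their median log2 fold change was -0.29, against 0.02 over all genes. Ece2, an endothelin-converting enzyme, had 226 to 229 scaled counts in P against 1166 to 1433 in D1 (log2 fold change -2.51, SE 0.08, adjusted p = 6e-24). Ece1, named for the same family, had a mean of 3624 in P and 3998 in D1 (-0.15, SE 0.04, adjusted p = 0.00051). Mme, the peptidase neprilysin, which degrades endothelin and other peptides, rose from 592 to 723 in D1 to 3521 to 4069 in P (2.52, SE 0.06), and Maoa, which breaks down serotonin and noradrenaline, fell by 1.23 on the log2 scale (SE 0.03). Edn1, the endothelin-1 gene itself, had 109, 124 and 124 scaled counts in D1 by order of size and 195, 257 and 300 in MBNL KD, with no overlap and a log2 fold change of 1.07 (SE 0.15, adjusted p = 3.4e-07). Edn1 was at -0.29 in P (adjusted p = 0.15) and 0.16 in RBPMS KD1 (adjusted p = 0.43). In MBNL KD, Lnpep, a membrane aminopeptidase that cleaves vasopressin and oxytocin, fell to 5689 to 5960 from 13760 to 14862 scaled counts in D1 (-1.29, SE 0.03). Edn1 and Lnpep were the only 2 of 10 tested list members past both thresholds in MBNL KD, and 0 of 9 passed both in RBPMS KD1, where 5 passed the adjusted p alone, 4 higher and 1 lower. The list medians were 0.30 in RBPMS KD1 and 0.03 in MBNL KD, against 0.00 and 0.01 over all genes.

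Other receptors that can contract vessels were read from a list of 30 genes, of which 29 are in the count table and 6 never exceeded 3 counts. In P, 6 of 19 tested were higher and 7 lower past both thresholds (16.4% and 11.2% of all genes), with a median of -0.12 on the log2 scale. Of the 6, Ptger3, F2rl1, Chrm3, Bdkrb1 and Bdkrb2 would not have met the filter on low counts from the D1 libraries, and of the 7, Adra2a would not have met it from those of P. Such genes were tested because they were high in 1 group, so the counts and the median support no direction, and without them the median over 13 genes was -0.35. F2rl1, which encodes the protease-activated receptor PAR2, had 524 to 583 scaled counts in P and 0 to 4.08 in D1, and the bradykinin receptor genes Bdkrb1 and Bdkrb2 had 338 to 388 and 319 to 340 in P against 0 to 8.25 and 4.12 to 16.3 in D1. Npy1r, a neuropeptide Y receptor gene, fell by 3.60 on the log2 scale (SE 0.07, adjusted p = 5.7e-30), from 2464 to 2599 scaled counts in D1 to 187 to 251 in P. The other protease-activated receptor genes of the list, named for their family, differed from F2rl1: F2rl2 had a mean of 182 in P and 103 in D1 (0.81, SE 0.18, adjusted p = 0.0001), which missed the fold threshold, and F2rl3 had 1.26 in P and 9.53 in D1 and was not tested. In RBPMS KD1, 1 of 16 tested genes passed both thresholds (3.06% of all genes higher and 1.62% lower). This was F2rl2, the gene for PAR3, which fell by 1.63 (SE 0.24, adjusted p = 9.5e-07) to 29.3 to 36.1 scaled counts from 80.4 to 116 in D1. In MBNL KD, 3 of 15 were higher and 1 lower past both thresholds (6.1% and 4.14% of all genes). Bdkrb2, which again met the filter through the knockdown libraries, was at 111 to 157 scaled counts (log2 fold change 3.78, SE 0.31), P2rx1, an ATP-gated channel, at 158 to 210 against 44.3 to 57.1 in D1 (1.80, SE 0.18), Lpar1, a lysophosphatidic acid receptor, at 759 to 842 against 287 to 433 (1.08, SE 0.10) and Npy1r at 960 to 980 (-1.39, SE 0.05). The medians were 0.12 in RBPMS KD1 and -0.28 in MBNL KD.

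Downstream of the receptors, the G protein subunits and RhoA exchange factors were read from a list of 13 genes, which also holds Rhoa, Rock1 and Rock2. Of the 12 tested in P, Arhgef25, an exchange factor that Gq activates, was the 1 gene past both thresholds, at 2840 to 2930 scaled counts in P against 13473 to 14059 in D1 (-2.24, SE 0.03, adjusted p = 5.3e-35). In both knockdowns 0 of 12 passed both thresholds. The adjusted p alone was passed by 3 genes upward and 5 downward in P (40.4% and 37.6% of all genes). It was passed by 3 and 7 in RBPMS KD1 (29.5% of all genes in each direction) and by 1 and 9 in MBNL KD (33.8% upward and 33.7% downward). Gnaq and Gna11, which encode the alpha subunits of Gq and G11 and are named here after their values were seen, were lower at the adjusted p in all 3 groups. Gnaq was at -0.53 in P, -0.56 in RBPMS KD1 and -0.53 in MBNL KD, with adjusted p of 8e-18, 7.5e-16 and 7.8e-17, and Gna11 was at -0.25, -0.74 and -0.38, with adjusted p of 3.2e-07, 8.9e-16 and 2.1e-10. The list medians were -0.05 in P, -0.18 in RBPMS KD1 and -0.25 in MBNL KD.

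Of 18 tested genes of phospholipase C and calcium release, 4 were higher and 5 lower in P past both thresholds (16.4% and 11.2% of all genes), with a median of -0.36. The list also holds protein kinase C, diacylglycerol kinase and Trpc channel genes, Stim1, Orai1 and Ppp1r14a. Of the 4, Plcb1 would not have met the filter on low counts from the D1 libraries, and without it the median over 17 genes was -0.425. Trpc6, a cation channel opened downstream of phospholipase C, fell from 8207 to 8520 scaled counts in D1 to 217 to 235 in P (-5.21, SE 0.05), and rose to 17870 to 18608 in MBNL KD (1.13, SE 0.02). Prkch, a protein kinase C gene, and Itpr2, an inositol trisphosphate receptor gene, were higher in P by 4.87 (SE 0.12) and 4.08 (SE 0.06). Of the other inositol trisphosphate receptor genes, named for their family, Itpr3 was higher in P (1.17, SE 0.03) and Itpr1 lower (-1.14, SE 0.03). Ppp1r14a, which encodes the myosin phosphatase inhibitor CPI-17, fell by 3.76 (SE 0.06) in P. In MBNL KD, Plcb4 was also higher (1.08, SE 0.03) and Itpr3 lower (-1.25, SE 0.04), making 2 higher and 1 lower of 18 (6.1% and 4.14% of all genes). In RBPMS KD1, 0 of 18 passed both thresholds (3.06% of all genes higher and 1.62% lower). At the adjusted p alone 6 passed there in each direction, beside 29.5% of all genes each way. The medians were -0.03 in RBPMS KD1 and -0.11 in MBNL KD.

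The last list, of receptor kinases, arrestins and Agtrap, holds genes that switch off or internalise receptors. In P, 2 of 7 tested were higher and 1 lower past both thresholds (16.4% and 11.2% of all genes), and 0 passed both in either knockdown. There the adjusted p alone gave 2 genes up and 1 down with RBPMS depleted, beside 29.5% of all genes each way. It gave 3 in each direction with MBNL1 and MBNL2 depleted, beside 33.8% of all genes up and 33.7% down. Agtrap, which binds the type 1 angiotensin receptor and promotes its internalisation, had 3193 to 3513 scaled counts in P against 944 to 976 in D1 (1.80, SE 0.05, adjusted p = 1.2e-26), in the group where Agtr1a was lowest. Arrb2 was higher in P (1.16, SE 0.08) and Grk5 lower (-1.30, SE 0.03). The medians were -0.13, -0.04 and 0.00 in P, RBPMS KD1 and MBNL KD. In all, 19 of the 79 companion genes tested in P were higher and 21 lower past both thresholds, or 24.1% and 26.6% beside 16.4% and 11.2% of all genes. In RBPMS KD1 they were 2 and 1 of 77, or 2.6% and 1.3% beside 3.06% and 1.62%, and in MBNL KD 11 and 4 of 78, or 14.1% and 5.13% beside 6.1% and 4.14%. Of the genes that were higher, 8 in P, 2 in RBPMS KD1 and 4 in MBNL KD would not have met the filter from the D1 libraries. The shares of higher genes therefore support no difference from the background. Of the genes that were lower, 3 in P, 0 in RBPMS KD1 and 0 in MBNL KD met the filter through the D1 libraries alone. The lists were chosen with earlier results of these data known, and the lower shares were not tested against the background.

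**Figure D4:**
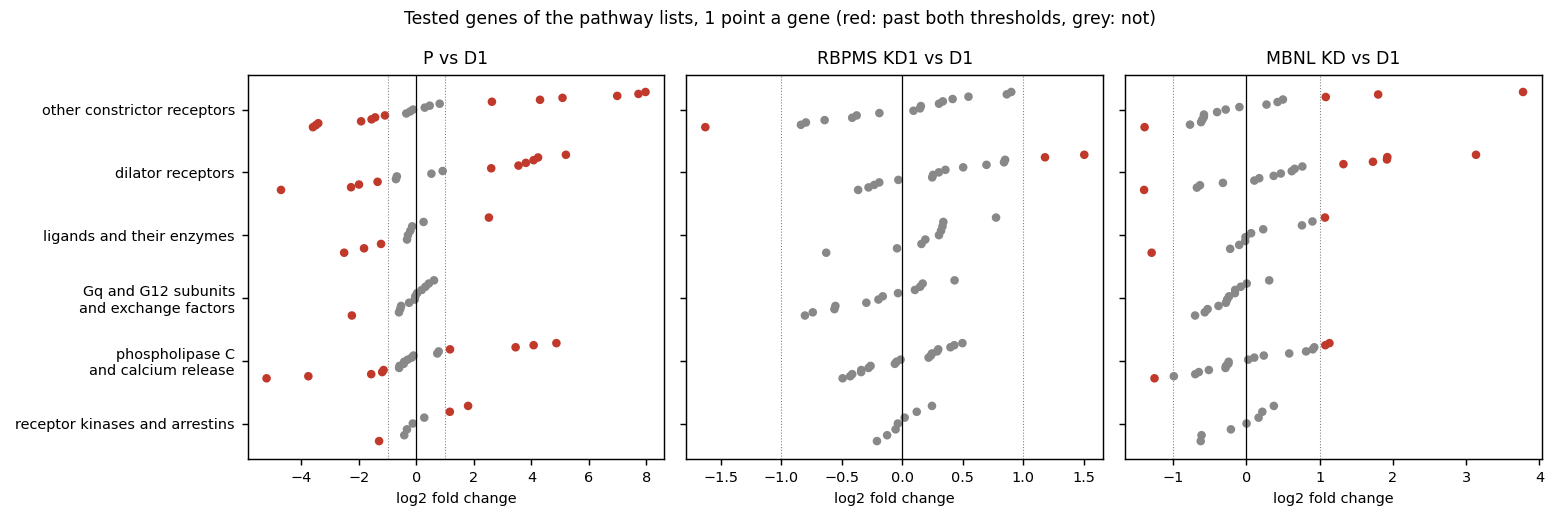
Log2 fold change (x axis, with a different scale in each panel) of every tested gene of 6 pathway lists (y axis) in P, RBPMS KD1 and MBNL KD against D1. Each point is 1 gene, in red where it passed both thresholds, and dotted lines mark a log2 fold change of 1 in each direction. Points spread from -5.21 for Trpc6 to 7.97 for F2rl1 in P, and nearly all lay within the dotted lines in RBPMS KD1.

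Genes whose levels followed the receptors most closely were ranked by Pearson's r of log2 library-scaled counts over the 12 libraries, among 12646 genes. The 12 points share libraries and 4 groups, so these values describe the pattern only. Ednra was followed most closely by Ptpn9 (r = 0.996), Mindy2 (0.994) and Plxnb1 (0.992), and Agtr1a by Ccdc88a (0.994), Tpm4 (0.991) and Numb (0.990). Adra1b was followed by Mapkapk2 (0.999), Vasp (0.997) and Col4a2 (0.995), Htr2a by Pde1a (0.998), Insyn1 (0.997) and Swt1 (0.997), and F2r by Mboat7 (0.999), Elovl5 (0.998) and Foxp1 (0.998). The 5 sets of neighbours had no gene in common.

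Promoter sequences were available from RefSeq, assembly GRCr8, for 8 of the 10 members. Those of Ednra and Agtr1a, both lower in P and RBPMS KD1, and of F2r, higher in P, are shown from 250 bases before to 50 after the annotated start, 5′ to 3′ on the strand of the gene. The Ednra window is chr19:47137674-47137973 on the plus strand, that of Agtr1a is chr17:34435383-34435682 on the minus strand and that of F2r is chr2:28620530-28620829 on the minus strand. Capitals mark matches, on either strand, to the CArG box bound by serum response factor, to TATAAA, to GGGCGG (a GC box), to TGANTCA (an AP-1 site) or to GGAATG (a TEAD site).
Ednra: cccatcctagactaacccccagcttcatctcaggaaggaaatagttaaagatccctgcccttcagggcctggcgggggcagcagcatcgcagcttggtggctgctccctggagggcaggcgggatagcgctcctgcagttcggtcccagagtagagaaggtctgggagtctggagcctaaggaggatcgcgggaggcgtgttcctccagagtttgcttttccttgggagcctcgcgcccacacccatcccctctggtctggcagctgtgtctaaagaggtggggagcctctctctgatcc
Agtr1a: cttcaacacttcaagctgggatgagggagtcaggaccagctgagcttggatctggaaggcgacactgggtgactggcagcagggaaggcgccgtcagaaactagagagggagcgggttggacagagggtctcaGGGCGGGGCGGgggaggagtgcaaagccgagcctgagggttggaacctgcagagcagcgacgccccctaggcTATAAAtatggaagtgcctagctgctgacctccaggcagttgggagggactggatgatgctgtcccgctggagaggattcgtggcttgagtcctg
F2r: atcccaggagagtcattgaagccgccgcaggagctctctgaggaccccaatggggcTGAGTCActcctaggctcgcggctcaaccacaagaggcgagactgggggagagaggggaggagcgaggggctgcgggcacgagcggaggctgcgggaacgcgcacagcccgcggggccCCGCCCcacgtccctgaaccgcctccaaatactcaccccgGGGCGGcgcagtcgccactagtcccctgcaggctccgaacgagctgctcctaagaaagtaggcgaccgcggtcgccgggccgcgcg
The Ednra window held no match. The Agtr1a window held TATAAA beginning 45 bases before the start and 2 GGGCGG matches, beginning 117 and 112 bases before it and overlapping each other, and the F2r window held TGANTCA beginning 194 bases before its start and GGGCGG matches, on opposite strands, beginning 76 and 36 bases before it. Of the 8 receptor windows, 0 held a CArG box, 0 held GGAATG, 2 held TATAAA, 3 held GGGCGG and 1 held TGANTCA. Among 33469 rat promoter windows of the same length, 1.64% held a CArG box, 14.2% GGAATG, 14.2% TATAAA, 33.1% GGGCGG and 7.33% TGANTCA. These are letter matches only.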

How the data were processed

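Poly(A) RNA of 12 PAC1 samples was sequenced. Per the study's methods, the authors subsampled reads with seqtk, aligned them with STAR (2.7.11b in the submitters' processing notes) to mRatBN7.2 and made the deposited counts per gene symbol with featureCounts and RefSeq annotation. Whether strand was used and how mates were counted is not given in the sources used here. At counts up to 20, even values were 2.35 to 2.69 times as frequent as odd ones. The authors' deposited normalised values are a signal on a linear scale after noisyR noise correction and quantile normalization, with a lowest value of 35, and hold 7 of the 10 receptor genes. They were used in an alternative only.

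Samples were grouped by title. Counts were tested in R 4.3.3 with edgeR 4.0.16: filterByExpr on the 6 libraries compared (10 counts at the median library size in 3 libraries), TMM, quasi-likelihood F test and Benjamini-Hochberg adjustment over all genes tested, with two-sided p-values. SE is the log2 fold change over the square root of F. The script was tested on simulated data with known changes. Symbols of all 10 members matched the RefSeq gene table of GRCr8, which was used for overlapping genes only. No transcript lengths were used, and 0 columns of values were left unmapped.

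The 10 members and the gene lists were chosen with earlier results of these data known. The genes named from the lists were up to 4 per list and comparison with D1, past both thresholds, by size of change, with at least 100 mean scaled counts in the higher group and no overlap between libraries. The rule does not cover marker genes, the copy Agtr1b, overlapping genes, or list genes described as named for their family or after their values were seen. Replicate numbers did not pair the samples (correlations of deviations between -0.0274 and 0.0842). Replicates of a group differed beyond sampling noise (chi-square per gene 4.04 to 15.6), so none was counted as a duplicate. Alternatives were other scalings (DESeq2 1.42.0 size factors, quantile), other filters (none, 10 counts in each library), DESeq2's Wald test, limma 3.58.1 on log2 of the normalised values, 1 fit of 12 libraries, a replicate block, an adjusted p under 0.01, and leaving out each library. Floors and intervals cover counting error only and take each count as independent. Python 3.11.15 with pandas and scipy made the summaries.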

Additional observations from a re-analysis of the deposited data

How the results depend on the processing

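Of 346 refitted log2 fold changes of single receptor genes, 315 kept their direction and their side of the adjusted p threshold of 0.05, 8 lost the call, 6 gained it and 17 changed sign. All 6 changes called in P, and those of Ednra, Agtr1a, Htr2a and F2r in RBPMS KD1, were kept under every alternative that tested them. The size of the Ednrb change depended most on the setting, from 1.59 in the authors' normalised values, whose lowest value is 35, to 9.50. Each sign change was in a value near 0 that passed no test: Htr2b in P without D1 replicate 3 (0.33) and without P replicate 1 (0.003), Adra1b in RBPMS KD1 with quantile normalization (-0.007), limma (-0.004), without D1 replicate 3 (-0.013) and without RBPMS KD1 replicate 1 (-0.029), Adra1b in MBNL KD with quantile normalization (-0.039), limma (-0.034) and without D1 replicate 3 (-0.028), and, between MBNL KD and RBPMS KD1, with quantile normalization Htr2a (0.027) and Ednra (0.033), with limma Htr2a (0.026) and Ednra (0.031), without RBPMS KD1 replicate 1 Adra1b (0.050), and without MBNL KD replicate 3 Adra1b (0.024), Htr2a (0.024) and Htr2b (-0.152). Htr2b also passed in P with quantile normalization (-1.10, adjusted p = 0.026). Over all left-out libraries these values ranged, for Htr2b in P, from -0.395 to 0.33, for Adra1b from -0.029 to 0.127 in RBPMS KD1 and from -0.028 to 0.109 in MBNL KD, and between the knockdowns from -0.073 to 0.050 for Adra1b, from -0.042 to 0.024 for Htr2a and from -0.152 to 0.448 for Htr2b. The cause was not tested for any of these.

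Counts of receptor genes past both thresholds in MBNL KD fell from 1 to 0 with quantile normalization, with 10 counts required in every library (Htr2b is then not tested), with limma and at an adjusted p under 0.01, and were 0 to 1 when libraries were left out. In RBPMS KD1 they were 1 to 2. Between the knockdowns limma gave 0 past both thresholds (Agtr1a at 0.998 on its scale), and quantile normalization and limma gave 2 at the adjusted p alone, F2r being the second. All genes past both thresholds numbered 4641 in P (2933 with 10 counts in every library, where fewer genes are tested), 745 in RBPMS KD1 (209 with limma), 1643 in MBNL KD (784 with limma) and 1920 between the knockdowns (1050 with limma). Companion genes numbered 3 in RBPMS KD1, with 1 under quantile normalization, the 10-count filter, DESeq2, limma and the stricter p, and 1 to 4 without single libraries. They numbered 15 in MBNL KD (8 with limma) and 12 between the knockdowns (7 with limma). Quantile normalization moved the share of higher genes among those called from 59.4% to 45.6% in P, from 65.4% to 54% in RBPMS KD1 and from 59.6% to 50.7% in MBNL KD. The fit with the replicate number as a replicate block gave 6, 1, 1 and 1 receptor genes in the 4 comparisons and changed no call of a receptor gene.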

Other observations

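Receptors that relax vessels, or are known mainly for opposing constriction, were read from a list of 23 genes, of which 4 never exceeded 3 counts in a library. In P, 6 of 14 tested were higher and 4 lower than in D1 past both thresholds (16.4% and 11.2% of all genes), with a median of 0.72 on the log2 scale. Of the 6, Ramp1 and Npr1 would not have met the filter on low counts from the D1 libraries, and of the 4, Avpr2 not from those of P. Without the 4 genes that needed 1 group, the median over 10 genes was 0.12, so the counts support no direction. Npr1, the receptor for atrial natriuretic peptide, had 1052 to 1135 scaled counts in P and 10.3 to 49.0 in D1 (log2 fold change 5.20, SE 0.16, adjusted p = 5.1e-25). Ramp3, which pairs with the calcitonin receptor-like receptor to form an adrenomedullin receptor, had 1206 to 1310 against 55.7 to 77.4 (4.23, SE 0.10), and Adora2b, an adenosine receptor gene, had 418 to 448 against 28.6 to 33.0 (3.81, SE 0.15). S1pr1, a sphingosine 1-phosphate receptor gene, went the other way, from 1875 to 2004 in D1 to 60.4 to 83.4 in P (-4.71, SE 0.09).

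In MBNL KD, 5 of 16 tested dilator receptor genes were higher and 1 lower past both thresholds (6.1% and 4.14% of all genes). The median was 0.55, or 0.37 over the 11 genes that met the filter from each group by itself. Ramp3 was at 222 to 273 scaled counts (1.92, SE 0.16) and Vipr2, a receptor for vasoactive intestinal peptide, at 105 to 152 against 40.8 to 63.2 in D1 (1.32, SE 0.21). The other three that rose, Ramp1, Agtr2 and Mas1, and the 1 that fell, Adora2a, had means below 40 scaled counts and are named after their values were seen. Ramp1, Agtr2 and Mas1 met the filter through the MBNL KD libraries only, and Adora2a through libraries of both groups together. In RBPMS KD1, 2 of 15 were higher past both thresholds (3.06% of all genes), Ramp1 and Mas1, also on few counts and named in the same way. Both met the filter through the RBPMS KD1 libraries only, the libraries of Mas1 overlapped those of D1, and the median over the 12 genes without such dependence was 0.25.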
